A study of Rattus norvegicus with 48 samples.

Results

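The comparison set 6 lungs of rats that had breathed filtered air on 16 exposure days beside 6 lungs of rats that had breathed it on 1 exposure day, all taken 1 day after the last exposure. These 12 libraries of the series' 48 are the air groups of both schedules at 1 day, as named by their labels. The comparison was chosen with earlier results of these data known. All animals were male Sprague-Dawley rats of about 200 to 250 g when obtained, an outbred strain, housed in pairs on a fixed cycle of light and dark. The single group (animals 1, 2, 3, 4, 9 and 10) spent 6 h in a whole-body inhalation chamber with filtered air. The repeated group (animals 34, 36, 37, 38, 39 and 40) spent 6 h a day there on 4 days a week for 4 weeks. Neither group received oil vapor, which other animals of the series breathed at 300 ppm. Ages were not given in the labels. By the schedules, about 4 weeks of growth and of repeated chamber housing lay between the groups when their lungs were taken, and each schedule's counts were deposited in a table of its own. Schedule, age, chamber time, count table and any difference in handling between the tables cannot be told apart in this comparison, so "repeated" and "single" below name the libraries and no cause.

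In young rats the lung goes on growing with the body after its airspaces have formed. New elastic fibers, fibrillar collagens and basement membranes are laid down by fibroblasts, smooth muscle and other cells while cells still divide, and this activity is known to decline toward adulthood. Elastin is made mostly during growth and turns over very slowly thereafter.

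Both groups were sequenced to like depth, with totals of 4.96 ± 0.401 M counts (SD, n = 6; M stands for mega) for the single and 5.38 ± 0.634 M for the repeated schedule. Of 30045 genes in both tables, 14831 passed the filter on low counts. A count of 3, taken here as the floor, was worth 0.494 to 0.663 CPM, the count scaled to a library of 1 M counts, in these libraries. All libraries held the defining transcripts of lung. Sftpc, a surfactant protein gene that marks alveolar type 2 cells, averaged 5569.8 ± 153 CPM (SD, n = 6) in the single and 5853 ± 659 CPM in the repeated group, Scgb1a1 of club cells 2019 ± 369.9 and 1922 ± 288 CPM, and Ager of alveolar type 1 cells 1487 ± 57.5 and 1392 ± 168 CPM. None of these markers passed the test between the groups. Levels are given on a scale normalized by TMM, which adjusts library totals for differences in composition. They are not divided by gene length, so they compare animals and not genes.

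Part of the counts ran in parallel between animals of the 2 tables. When the 6 animals of each group were put in order of their numbers, Alas2, the enzyme that starts heme synthesis in red cell precursors, had 1545, 3194, 3395, 2136, 11427 and 8081 counts in the single group. In the repeated group it had 1604, 3614, 3643, 2209, 12603 and 8741 counts, which is 1.034 to 1.131 times the count at the same place. The interferon-induced gene Rsad2 had ratios of 0.9719 to 1.158 and the serum albumin gene Alb 0.8824 to 1.343. Other genes did not follow the places: ratios of the cardiac myosin Myh6 ran from 0.1855 to 14.37 and those of the elastin gene Eln from 0.2768 to 0.6355. Of 216 tested genes that varied at least 3-fold within both groups at a mean of at least 20 counts, 36 had all 6 ratios within 1.3-fold of 1. Those 36 include Alas2, Ahsp, Klf1, Fech and other genes of red cell precursors. Of them 0 passed the test between schedules, which the rule of ratios near 1 all but fixed in advance. Whether the tables share material or reads was not tested. If they do, the 12 libraries are not fully separate animals and the p-values below do not hold as given. All 12 libraries take part in the parallel, so the results below could not be given without them. No pair of libraries within a group agreed within sampling noise (30 pairs, chi-square per gene 2.84 to 9.86). Pairs across the groups were not compared in this way, so the check cannot bear on the parallel between the tables. Each library was counted as the 1 animal its label names.

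**Figure D1:**
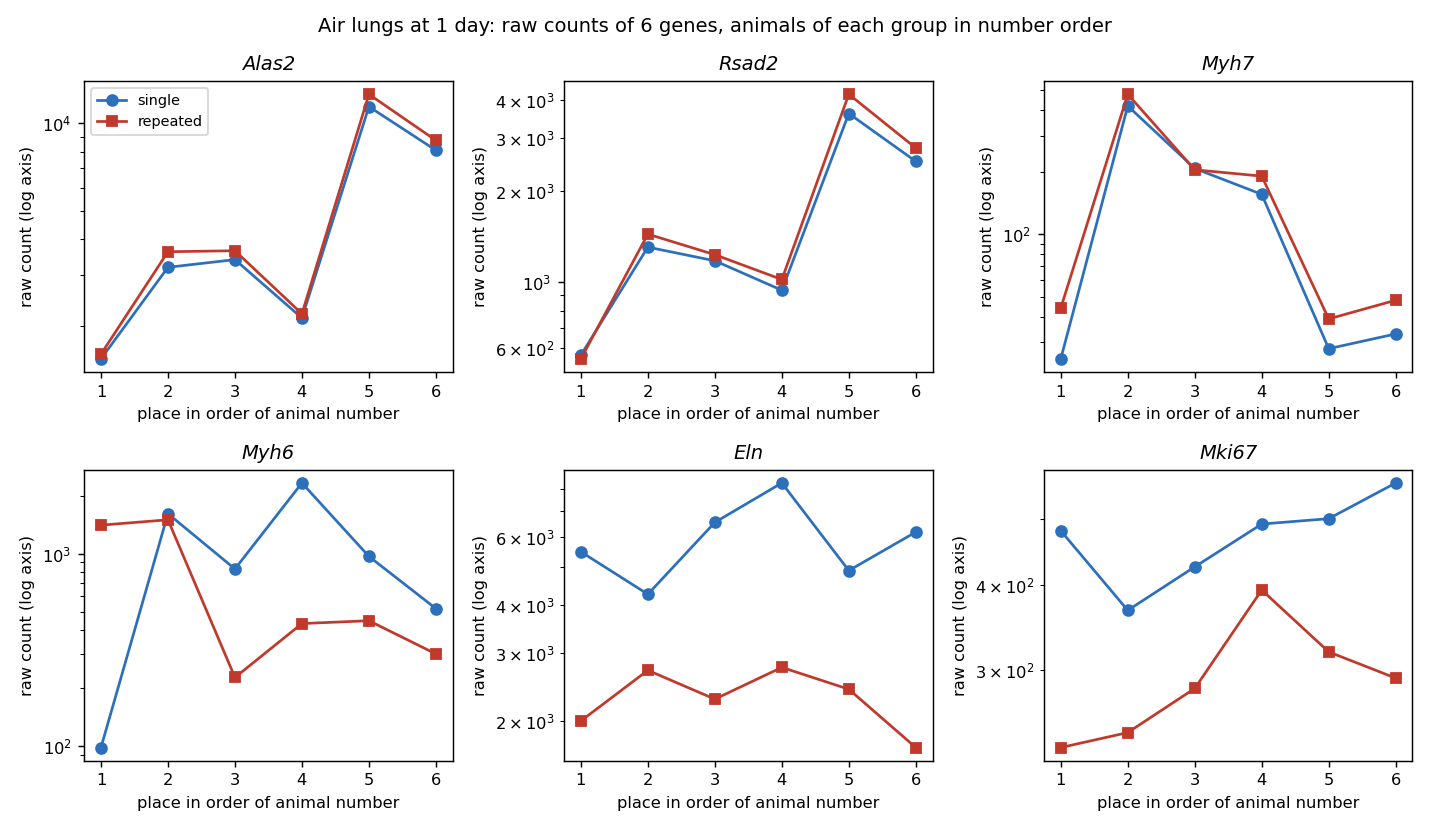
Raw counts (log axes) of 6 genes in the 6 single (blue circles) and 6 repeated (red squares) air lungs at 1 day, with the animals of each group in order of their numbers along the horizontal axis; the lines only guide the eye. Alas2 and Rsad2 follow the same course in both groups at nearly equal counts, Myh7 and Alas2 rank the places differently from each other, and Eln and Mki67 lie lower in the repeated group at every place.

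The schedules differed in 833 genes, 5.62% of the 14831 tested, called where the p of edgeR's quasi-likelihood test, adjusted after Benjamini and Hochberg over all of them, lay below 0.05. Of these, 537 were lower (3.62% of those tested) and 296 higher (2%) in the repeated group. The smallest adjusted p was 6.28e-08, that of Eln, and 3008 genes had an unadjusted p below 0.05. Most differences were small. The median size on the log2 scale was 0.46 among the lower and 0.27 among the higher genes, and 348 of the 537 and 267 of the 296 were under 1.5-fold. At least 2-fold lower were 44 genes and at least 2-fold higher 8. The 6 animals of one group all lay below the 6 of the other for 272 of the lower (50.7%) and 146 of the higher genes (49.3%), against 3.64% of all genes tested. Leaving out animal 4 of the single group left 483 calls and leaving out animal 39 of the repeated group 539, and 475 and 518 of these were among the 833. No call changed direction in any setting tried. Whether fewer cells of a type or less RNA per cell lies behind a lower level cannot be told apart in bulk tissue.

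**Figure D2:**
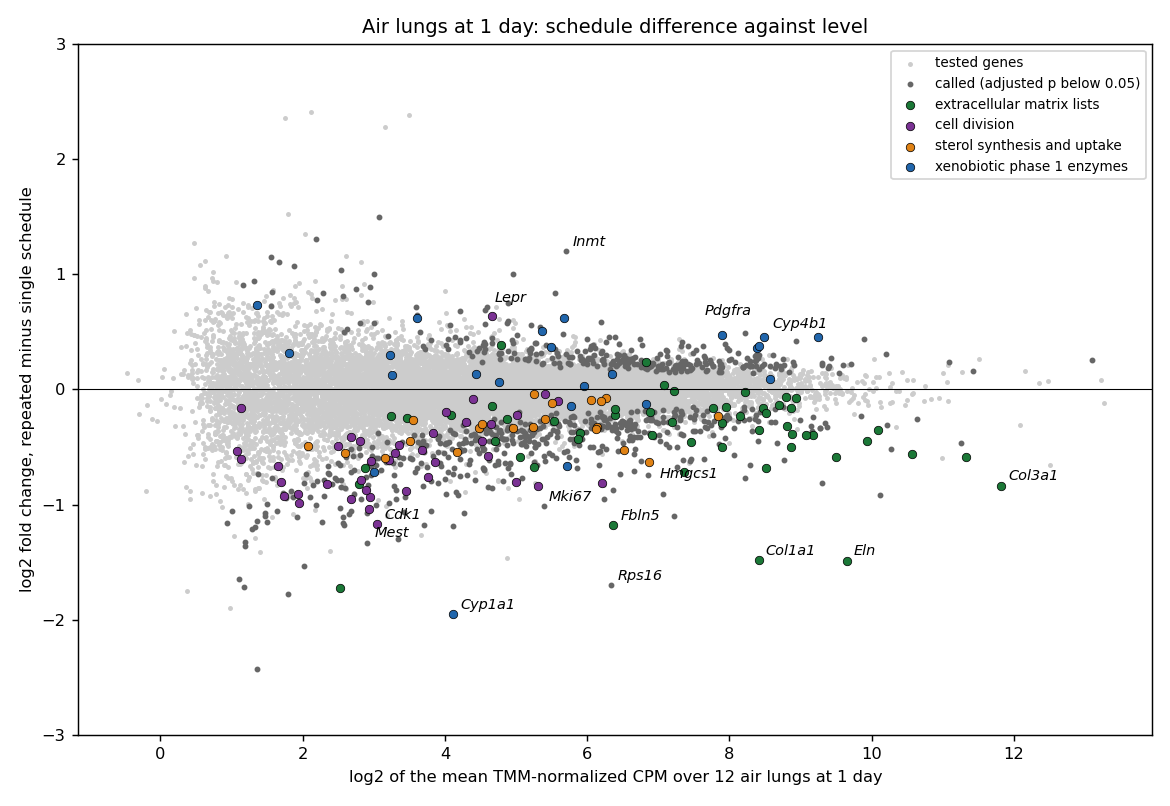
Log2 fold change of each of 14831 tested genes, repeated minus single schedule in air lungs at 1 day (vertical axis), against the log2 of its mean TMM-normalized CPM over the 12 lungs (horizontal axis). Called genes are dark grey; genes of 4 kinds of list are colored whether or not they were called, and matrix genes (green) such as Eln at -1.49 and Col1a1 at -1.49 and cell division genes (purple) such as Cdk1 at -1.17 lie mostly below 0.

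Elastic fiber genes were lower in the repeated group, and Eln had the smallest p of all genes. Elastin is the rubber-like core protein of the fibers that let airspaces recoil. Eln measured 936, 1187 and 1479 CPM at the lowest, median and highest single animal and 368, 421 and 472 CPM in the repeated group. Every repeated animal lay below every single one, and the log2 fold change, repeated minus single, was -1.49 (SE 0.12, adjusted p = 6.28e-08). Fbln5, the fibulin needed to assemble elastin on its scaffold, had 93.4, 109.6 and 151 CPM in single against 43.1, 50.01 and 61.6 CPM in repeated lungs, again without overlap (-1.18, SE 0.12, adjusted p = 2.04e-06). The scaffold protein fibrillin-1, Fbn1, differed less in proportion (868 ± 74.7 against 576 ± 40.02 CPM, SD, n = 6 each; -0.59, SE 0.07). Loxl1, a crosslinking oxidase of elastin, had a log2 fold change of -0.72 (SE 0.10, adjusted p = 0.000114). Of 19 tested genes of the elastic fiber and crosslinking list, 10 fell and 0 rose, with a median of -0.43 beside 0.0026 over all genes tested. Called were 52.6% of the list, against 5.62% of all genes tested, the share to set beside every list below. The other 6 that fell were the crosslinking oxidases Lox (-0.45) and Loxl2 (-0.68), the microfibril gene Mfap2 (-0.82), Emilin1 (-0.40) and the latent TGF-beta binding proteins Ltbp2 (-0.50) and Ltbp3 (-0.43). Not all members moved together: Loxl4 had a value of 0.39 and Efemp1 of 0.24, neither past the threshold. Without animal 4 the list held 7 that fell, and over the 12 libraries left out in turn 7 to 11.

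**Figure D3:**
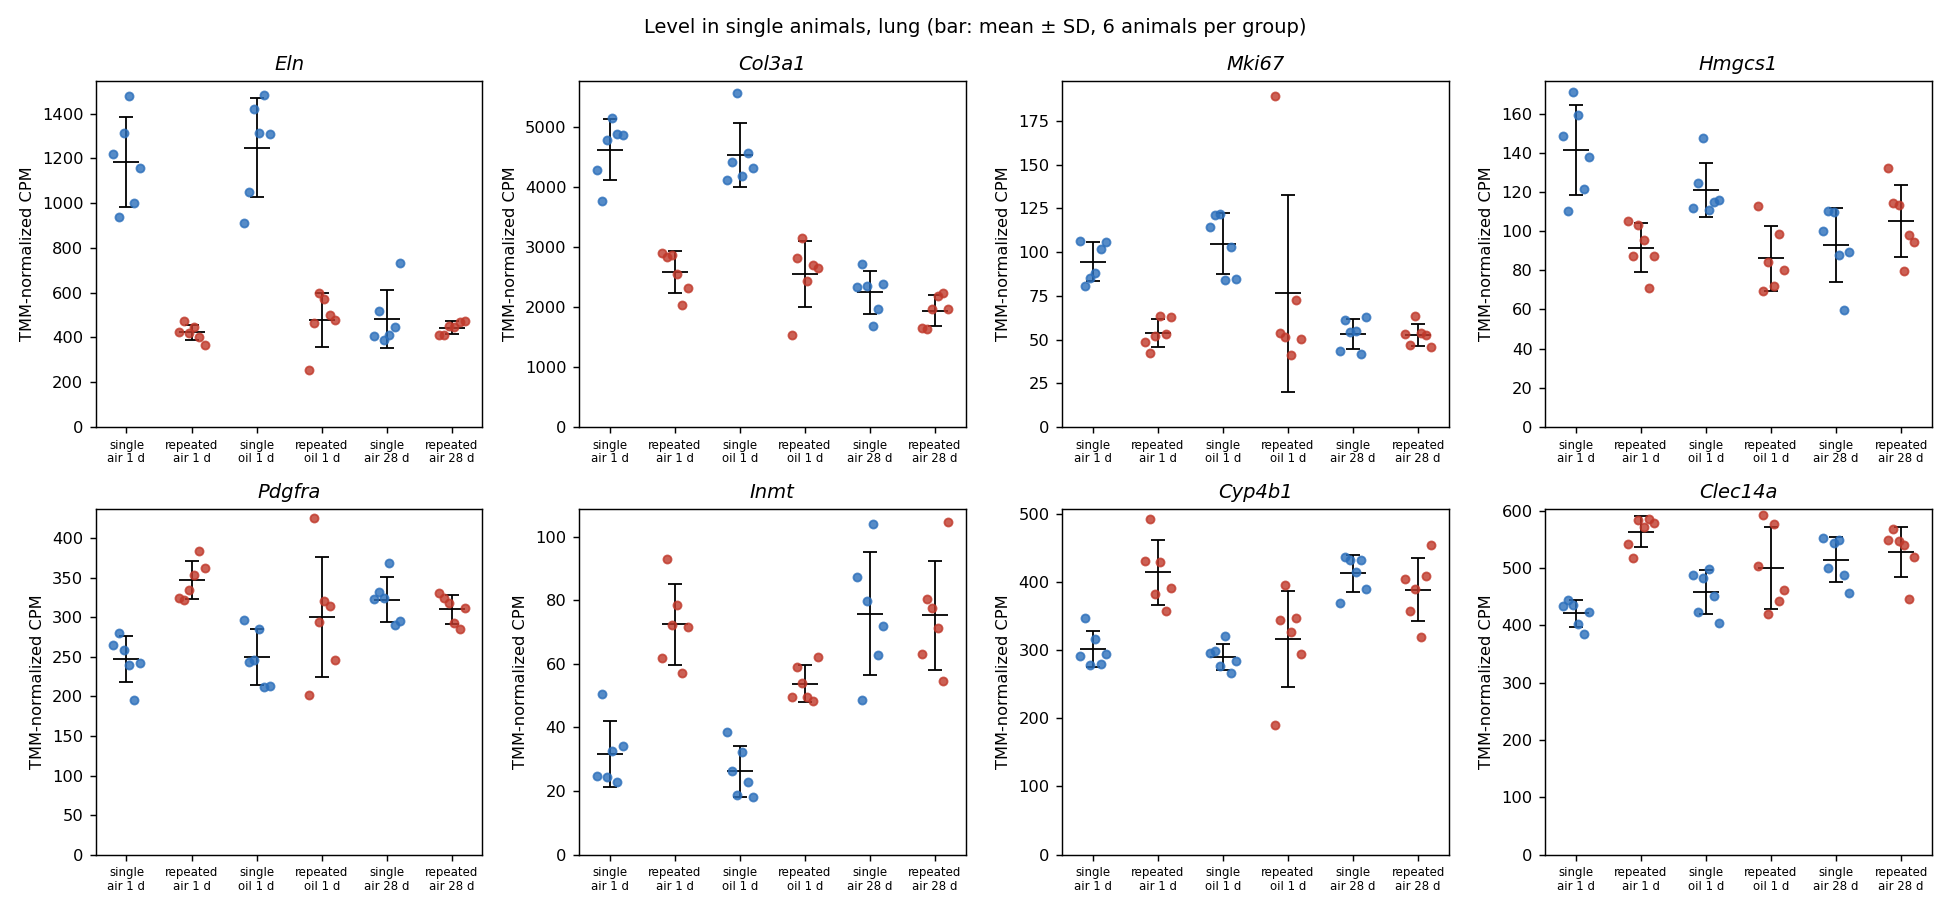
TMM-normalized CPM (vertical axes, from 0) of 8 genes in single animals of the 4 groups at 1 day and the 2 air groups at 28 days; blue points are the single and red points the repeated schedule, and bars give the mean ± SD of 6 animals. At 1 day in air, Eln, Col3a1, Mki67 and Hmgcs1 lie higher in every single-schedule animal than in any repeated one, and Pdgfra, Inmt, Cyp4b1 and Clec14a lower, while at 28 days the air groups overlap; 1 repeated oil vapor animal reaches 189 CPM of Mki67.

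Fibrillar collagens, the tension-bearing fibers of the lung, were lower in the repeated group as well. Col3a1, the type III collagen of distensible tissue, measured 3768, 4825 and 5159.7 CPM (lowest, median and highest animal) in the single and 2041, 2696 and 2902 CPM in the repeated group. The ranges did not meet, with a log2 fold change of -0.84 (SE 0.11, adjusted p = 3.11e-05). Col1a1, a chain of the stiffer type I collagen, had 383, 453 and 708 against 114, 166 and 236 CPM and the larger fold change of -1.49 (SE 0.20, adjusted p = 6.03e-05). The type V chain Col5a2, which helps start fibrils, and the beaded filament chain Col6a1 had values of -0.39 (SE 0.06) and -0.39 (SE 0.06). In all, 8 of the 15 tested fibrillar and network collagens fell and 0 rose (median -0.37), all 15 having negative values. Col15a1 had the most negative value, -1.72, without passing the test (adjusted p = 0.196).

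Enzymes and chaperones of collagen synthesis were next. Serpinh1, the collagen chaperone of the endoplasmic reticulum, ran at 481, 524 and 561 CPM in single and 279.6, 341 and 425 CPM in repeated lungs, without overlap (-0.61, SE 0.10, adjusted p = 0.000333). The procollagen N-proteinases Adamts2 (-0.52) and Adamts14 (-0.55) fell as well, as did the chaperone Fkbp10 (-0.40), the prolyl hydroxylase subunits P4ha3 (-0.54) and P4hb (-0.15), and Pcolce (-0.39), which enhances removal of the C-propeptide. This made 7 of 15 tested members of the list, with 0 that rose and a median of -0.23. Without animal 4 the list held 3 that fell and without animal 39 it held 5. The lysyl hydroxylases Plod1, Plod2 and Plod3 did not pass, with values of -0.25, -0.14 and -0.06.

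In the basement membrane, 8 of 19 tested genes fell and 0 rose (median -0.23), and 8 or 9 fell whichever of the 12 libraries was left out. Nid1, the nidogen that links laminin to type IV collagen, measured 379, 453 and 498 CPM in the single and 252, 283 and 311 CPM in the repeated group. All repeated animals lay below all single ones, with a log2 fold change of -0.68 (SE 0.07, adjusted p = 6.20e-07). The laminin chain Lamc1, shared by most laminins, differed by a smaller step with little spread (612 ± 33.3 against 466 ± 12.8 CPM, SD, n = 6 each; -0.39, SE 0.05). Sparc, a matrix glycoprotein that binds collagen, had a value of -0.59 (SE 0.07, adjusted p = 1.19e-05) and the type IV collagen chain Col4a1 of -0.56 (SE 0.09, adjusted p = 0.000528). The laminin chains Lama3 and Lamb3 of epithelia had values of -0.02 and -0.01, neither past the threshold.

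Of the matrix proteases and inhibitors, 7 of 18 tested genes fell and 0 rose (median -0.30). Adamts17, a secreted metalloprotease linked to fibrillin-containing microfibrils, measured 80.6, 98.4 and 117 CPM in single and 45.9, 51.3 and 59.1 CPM in repeated lungs, and no animal of one group reached into the other (-0.95, SE 0.09, adjusted p = 6.20e-07). Adamts12 (-0.54, SE 0.08), the versican-cleaving Adamts9 (-0.61, SE 0.11) and Mmp14 (-0.41, SE 0.07), a membrane-bound collagenase, were also lower. With Mmp2 (-0.34), Adamts5 (-0.52) and Adamts10 (-0.28) they made up the 7, and 5 to 8 members fell as libraries were left out. Mmp12, the elastase of macrophages, had the most positive value, 0.75, and did not pass (adjusted p = 0.150).

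Other genes stood among the 15 lower ones of smallest p. Fstl1, a secreted follistatin-like protein needed in lung development, had 257, 286 and 299 CPM in single against 201, 208 and 218 CPM in repeated lungs, with a log2 fold change of -0.43 (SE 0.05, adjusted p = 4.77e-06). The protocadherin Pcdh17 (-0.62), Nrep (-0.90), Igsf10 (-0.71), the giant cadherin Fat4 (-0.47), the secreted serine protease Htra1 (-0.69) and the tetraspanin Tspan18 (-0.58) completed them. Their adjusted p values ran from 5.44e-06 for Pcdh17 to 4.74e-05 for Tspan18. The groups did not overlap for any of the 15, which were picked by their small p; over all lower calls the share was 50.7%, and over all genes tested 3.64%.

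Cell division genes were lower in the repeated group. Of 40 tested genes of the mitotic and replication machinery, 23 fell and 0 rose, with a median of -0.61, and 39 had negative values. Mki67, a nuclear protein of dividing cells, had 80.6, 94.9 and 106 CPM at the lowest, median and highest single animal and 42.4, 52.5 and 63.5 CPM in the repeated group (-0.82, SE 0.11, adjusted p = 4.74e-05). The groups did not overlap. Cdk1, the kinase that drives entry into mitosis, measured 9.12, 10.8 and 15.5 against 4.01, 5.14 and 6.30 CPM (-1.17, SE 0.16, adjusted p = 8.84e-05). Top2a, which untangles chromosomes, had a value of -0.84 (SE 0.14, adjusted p = 0.000465) and the mitotic kinesin Kif20a of -1.04 (SE 0.17, adjusted p = 0.000771). Among other mitotic genes, Plk1, Cdc20, Ccnb1, Ccna2 and Bub1b fell, at -0.99, -0.95, -0.81, -0.78 and -0.82. Of the helicase subunits that open origins, Mcm6 fell (-0.29), while Mcm2, Mcm3, Mcm4, Mcm5 and Mcm7 had values of -0.30, -0.09, -0.23, -0.55 and -0.04 and did not pass. Pcna, the sliding clamp, stood at -0.10. Aurkb was the 1 member with a positive value, 0.63 (adjusted p = 0.242). Between 17 and 26 members fell when each library was left out in turn, 17 without animal 4.

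Mitotic genes share promoter elements known as the CCAAT box and the cell cycle homology region, through which they are switched on late in the division cycle. The promoters of the 4 members of smallest p among those that fell and hold both are shown because these genes fell together. Each runs 5′ to 3′ from 250 bases before to 50 bases after the start given by RefSeq on the assembly GRCr8, which is not the build of the counts. Capitals mark the CCAAT box, searched as CCAAT, and the cell cycle homology region, searched as TTTGAA with the alternative spelling TTCGAA, each on both strands, so that a CCAAT of the other strand is printed as ATTGG. In Mki67 a TTTGAA of the region shares 1 base with an ATTGG of the box.
Mki67, chr1:199952544-199952843, minus strand: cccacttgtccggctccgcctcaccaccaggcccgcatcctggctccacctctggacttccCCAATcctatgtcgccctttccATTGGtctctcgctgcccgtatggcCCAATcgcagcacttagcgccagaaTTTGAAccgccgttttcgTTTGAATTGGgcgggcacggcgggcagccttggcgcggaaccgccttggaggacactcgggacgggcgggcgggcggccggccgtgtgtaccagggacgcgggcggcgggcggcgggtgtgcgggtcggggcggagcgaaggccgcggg
Cdk1, chr20:19265043-19265342, plus strand: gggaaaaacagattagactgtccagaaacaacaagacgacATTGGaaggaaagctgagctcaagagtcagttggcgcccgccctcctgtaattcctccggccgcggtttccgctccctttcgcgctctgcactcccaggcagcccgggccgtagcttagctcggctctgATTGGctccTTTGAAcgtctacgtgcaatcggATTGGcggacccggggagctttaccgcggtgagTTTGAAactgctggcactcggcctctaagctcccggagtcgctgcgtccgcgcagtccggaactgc
Top2a, chr10:84473044-84473343, minus strand: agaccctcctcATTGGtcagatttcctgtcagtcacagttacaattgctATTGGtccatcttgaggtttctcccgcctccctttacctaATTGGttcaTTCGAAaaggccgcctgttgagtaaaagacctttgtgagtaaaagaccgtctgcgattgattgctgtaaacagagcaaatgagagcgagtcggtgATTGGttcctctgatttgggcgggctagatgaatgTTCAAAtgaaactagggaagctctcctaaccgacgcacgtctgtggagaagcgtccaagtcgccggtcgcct
Cenpf, chr13:103760837-103761136, minus strand: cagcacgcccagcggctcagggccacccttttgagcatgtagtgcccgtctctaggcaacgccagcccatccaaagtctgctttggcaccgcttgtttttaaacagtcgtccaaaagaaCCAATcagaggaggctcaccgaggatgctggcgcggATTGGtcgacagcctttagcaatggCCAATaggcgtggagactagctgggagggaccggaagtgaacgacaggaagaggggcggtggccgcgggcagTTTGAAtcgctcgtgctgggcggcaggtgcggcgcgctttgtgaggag

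Of the 40 tested cell division genes 32 matched a promoter in the RefSeq table. CCAAT stood in 71.9% of them, the cell cycle homology region in 59.4% and both in 46.9%. Over all 27457 promoters of the table the shares were 37.7%, 19.5% and 7.83%, and over the 10060 that matched a tested gene 37.4%, 13.9% and 5.81%. Among the 19 matched members that fell, 14 held CCAAT, 12 the cell cycle homology region and 9 both, near the shares of the whole list. These are matches of letters within 300 bases and describe the list, not its difference between the schedules.

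Replication-dependent histones, which supply the chromatin of newly copied DNA, were lower too, 10 of 17 tested genes having fallen and 0 risen (median -0.69). Hist1h3a, a histone H3 gene, measured 20.9, 23.1 and 28.1 CPM in single and 10.3, 11.2 and 16.6 CPM in repeated lungs, without overlap (-0.92, SE 0.13, adjusted p = 0.000123). The linker histones Hist1h1d (-0.74, SE 0.12) and Hist1h1a (-0.94, SE 0.17) and the variant H2afx (-0.84, SE 0.14) fell with it. Histone genes are near-identical copies, so the split of reads between them is uncertain. Without animal 4 the list held 6 that fell, and without animal 39 it held 9.

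Of 12 tested imprinted growth genes, which are known in some tissues to be expressed from 1 parental copy, 3 fell and 0 rose. This is 25% of the list, against 5.62% of all genes tested. Mest, a gene expressed from the paternal copy and active in growing tissue, measured 7.03, 10.8 and 14.8 CPM in the single and 2.75, 3.94 and 6.98 CPM in the repeated group, the highest repeated animal lying just below the lowest single one (-1.33, SE 0.20, adjusted p = 0.000155). Igf2r (-0.16), the receptor that clears IGF2, and the signaling adaptor Grb10 (-0.19) were the other members that fell. The fetal growth factor Igf2 had a value of -0.58 and the Notch ligand homolog Dlk1 of -0.21, neither past the threshold (adjusted p = 0.0766 and 0.819). The remaining tested members were Ndn at -0.41, Gatm at -0.21, Slc38a4 at -0.16, Plagl1 at -0.15, Sgce at -0.12, Gnas at -0.06 and Cdkn1c at 0.31, none of which passed. Without animal 39 the list held 1 that fell.

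Igf1, the growth factor made under growth hormone, had 226, 277 and 303 CPM in single against 164, 196 and 214 CPM in repeated lungs, without overlap (-0.48, SE 0.10, adjusted p = 0.00319). Its binding proteins Igfbp4 (-0.48, SE 0.10) and Igfbp2 (-0.66, SE 0.19) fell as well. They made 3 of the 13 tested genes of the growth hormone and IGF axis, whose median was -0.01. Called were 23.1% of that list, against 5.62% of all genes tested. The call of Igfbp2, with an adjusted p of 0.0392, was lost when any 1 of animals 1, 4, 9, 36, 38, 39 and 40 was left out. Igf1r, the receptor, had a value of 0.16 and the growth hormone receptor Ghr of 0.11, both short of the threshold.

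Sterol genes were next, with 6 of 21 tested genes that fell and 0 that rose. All 21 tested genes of sterol synthesis and uptake had negative values (median -0.33). Hmgcs1, which makes a precursor of mevalonate, had 110.2, 143 and 171 CPM in single against 71.1, 91.4 and 105 CPM in repeated lungs, without overlap (-0.63, SE 0.13, adjusted p = 0.00511). Dhcr7 (-0.45), Hsd17b7 (-0.60) and the squalene synthase Fdft1 (-0.34) were among the others that fell. The number that fell ran from 4 to 9 as libraries were left out, with 4 without animal 4 and 4 without animal 39.

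Among genes higher in the repeated group the smallest p belonged to Clec14a, a lectin-like receptor of endothelial cells, at 384, 429 and 445 CPM in single and 518, 575 and 586 CPM in repeated lungs. The groups lay close but apart, with a log2 fold change of 0.42 (SE 0.06, adjusted p = 6.67e-05). Pdgfra, the receptor that marks alveolar fibroblasts, had 196, 249.9 and 281 against 322, 344 and 384 CPM, also apart (0.49, SE 0.07, adjusted p = 0.000111). Lepr, the leptin receptor, rose by 0.72 (SE 0.11), from 18.4 ± 2.82 to 30.1 ± 3.98 CPM (SD, n = 6 each). Inmt, an enzyme that methylates indole amines and is abundant in lung, showed the largest rise of those named next to Syndig1. It measured 22.8, 28.7 and 50.5 CPM in single and 57.3, 71.8 and 92.97 CPM in repeated lungs (1.20, SE 0.19, adjusted p = 0.000333). Single animal 2 stood nearest to the repeated group, at 50.5 CPM.

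The rest of the 15 higher genes of smallest p were Gprin3 (0.36), Crebrf (0.36), Fam63b (0.34), the thioredoxin inhibitor Txnip (0.44), Cyp4b1 (0.46), the angiotensin-cleaving aminopeptidase Enpep (0.45), Crim1 (0.45), which binds bone morphogenetic proteins, Fam126b (0.31), Hepacam2 (1.00), the procollagen proteinase enhancer PCOLCE2 (0.56) and Syndig1 (1.31). Txnip was the 1 gene of the 15 whose groups overlapped, since repeated animal 38 had 915 CPM and single animal 2 had 932 CPM. The 15 were picked by their small p. Groups lay apart for 49.3% of all higher calls and for 3.64% of all genes tested. Syndig1 and Hepacam2 were low genes, at 2.62 ± 0.734 against 6.51 ± 2.02 and 5.33 ± 1.16 against 10.8 ± 2.79 CPM (SD, n = 6 each).

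Xenobiotic phase 1 enzymes, which oxidize inhaled and circulating compounds, changed in both directions. Of 23 tested genes 5 rose and 3 fell, and the median was 0.30. Called were 34.8% of the list, against 5.62% of all genes tested. Cyp4b1, a cytochrome P450 typical of lung, measured 279, 293 and 347 CPM in single and 358, 409.8 and 492 CPM in repeated lungs, without overlap (0.46, SE 0.08, adjusted p = 0.000789). The aldehyde oxidase Aox3 (0.62, SE 0.11), Cyp2b1 (0.37, SE 0.07), Fmo1 (0.47) and the carboxylesterase Ces1d (0.36) rose as well. Cyp2b1 belongs to a family of near-identical copies. Cyp1a1, the classic target of the aryl hydrocarbon receptor, went the other way, from 11.01, 24.2 and 49.7 CPM in single to 4.67, 6.27 and 12.01 CPM in repeated lungs (-1.95, SE 0.33, adjusted p = 0.000779). Its groups met at the edge, single animal 9 having 11.01 CPM and repeated animal 34 having 12.01 CPM. The retinoic acid hydroxylase Cyp26b1 (-0.66) and the soluble epoxide hydrolase Ephx2 (-0.72) fell. Cyp1b1, another target of the receptor, had a value of 0.30 (adjusted p = 0.290).

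No gene passed in the lists of alveolar type 2 cells (17 tested), B and plasma cells (14), T cells (18), natural killer and cytotoxic cells (14), mast cells, basophils and eosinophils (12) or the interferon response (33). Over all genes tested 5.62% were called, so 0 calls in lists of these sizes shows little about them. Their medians lay between -0.05 and 0.23. The highest was that of the natural killer and cytotoxic list, in which 13 genes had positive values and 1 a negative value. Among 14 alveolar type 1 genes 2 rose and 2 fell (median -0.01). The tight junction gene Cldn18 measured 289, 391 and 464 CPM in single and 229.7, 245 and 253 CPM in repeated lungs (-0.66, SE 0.12, adjusted p = 0.00112). Single animals 9 and 10, at 289 and 315 CPM, were the lowest of their group and still above every repeated animal. Rtkn2 rose by 0.30 (SE 0.06), whereas the defining markers Aqp5, Hopx and Pdpn had values of -0.05, 0.14 and 0.13 and did not pass. Cav2 rose by 0.21, a call lost when any 1 of animals 3, 4, 38 and 39 was left out. The other gene that fell was Igfbp2, described above.

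Of 14 tested fibroblast genes 2 rose and 3 fell. Pdgfra and Inmt rose, and the mesenchymal transcription factors Tbx4 (-0.36, SE 0.07), Meox2 (-0.41, SE 0.11) and Tbx5 (-0.24) fell, while the other 9 did not pass, among them Tcf21 (-0.10) and Dcn (0.34). The call of Meox2, whose adjusted p was 0.0289, was lost when any 1 of animals 1, 3, 4, 9, 37, 38, 39 and 40 was left out. Of 20 endothelial genes, the receptor Tek rose (0.21, SE 0.05) and the TGF-beta co-receptor Eng (-0.36, SE 0.08) and the apelin receptor Aplnr (-0.28, SE 0.08) fell. Called were 35.7% of the fibroblast and 15% of the endothelial list, against 5.62% of all genes tested. Pecam1, Cdh5 and Kdr, which define endothelium, had values of -0.02, -0.17 and -0.08 and did not pass. Without animal 4 or without animal 39, the fibroblast list held 1 gene that fell, the alveolar type 1 list 1, and the endothelial list 1 that fell and 0 that rose.

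Of 18 tested complement and acute phase genes 4 fell and 1 rose (median -0.0044). This is 27.8% of the list, against 5.62% of all genes tested. Lbp, which presents bacterial lipopolysaccharide, had 12.6, 17.5 and 26.9 CPM in single against 5.49, 9.49 and 11.7 CPM in repeated lungs, without overlap (-1.06, SE 0.20, adjusted p = 0.00247). The complement inhibitor Serping1 (-0.71, SE 0.16) overlapped, since single animals 9 and 10 had 75.05 and 89.5 CPM and the other 4 single animals at least 133 CPM. C6 (-1.298, SE 0.33) rested on single animal 10, which reached 31.5 CPM, and its call was lost without that animal (-0.90, adjusted p = 0.0685). C7 (-0.31, SE 0.08) fell as well, and the fibrinogen chain Fgg rose (0.41). Without animal 4 the list held 4 that fell and 0 that rose.

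Among 25 tested cytosolic ribosomal proteins 4 rose by 0.20 to 0.27, Rpl14 (0.20, SE 0.05), Rpl19 (0.27, SE 0.07), Rpl7 (0.22, SE 0.06) and Rpl32 (0.23), and Rps16 fell. Rps16 measured 68.5, 131 and 181 CPM in single and 24.6, 39.4 and 49.3 CPM in repeated lungs (-1.70, SE 0.34, adjusted p = 0.00301). Single animals 9 and 10 had 68.5 and 69.3 CPM, and the other single animals at least 117 CPM. Ribosomal protein genes have many processed copies in the genome, so these values are uncertain. Of 25 proteasome subunits Psmc3 (-0.42, SE 0.10), Psmd2 (-0.22) and Psmc5 (-0.21) fell, and of 20 chaperones and genes of the unfolded protein response P4hb, Hsp90b1 (-0.32) and Pdia6 (-0.18) fell. Called were 20% of the ribosomal, 12% of the proteasome and 15% of the chaperone list, against 5.62% of all genes tested. These shares rest on few genes. Without animal 4, 1 proteasome and 0 chaperone genes fell and 2 ribosomal genes rose. Without animal 39, 1 and 1 fell and 2 rose.

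Of 18 tested circadian clock genes, which follow the hour of the day, 1 rose, the activator Rora (0.19, SE 0.05, adjusted p = 0.0247). This is 5.56% of the list, near the 5.62% called among all genes tested, and shows nothing about the list. This call was lost when any 1 of animals 3, 4, 38 and 39 was left out. The core genes Arntl and Clock had values of 0.13 and 0.07, the repressors Per1, Per2, Per3, Cry1 and Cry2 0.10, -0.28, 0.01, -0.12 and -0.16, and Ciart -0.05. The nuclear receptors Nr1d1 and Nr1d2 stood at 0.51 and 0.24, the output factors Dbp, Tef and Nfil3 at 0.19, 0.23 and -0.25, Npas2 at -0.22, Bhlhe40 and Bhlhe41 at -0.27 and 0.19, and Usp2 at -0.09. Per1 and Per3 each changed sign in some of the fits that left out 1 library, of either schedule.

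Transcripts of blood and heart stood beside these differences. Of 16 erythroid genes, Hba1 (-0.92, SE 0.13, adjusted p = 6.67e-05) and Hba2 (-0.81, SE 0.15, adjusted p = 0.00141), near-identical chains of hemoglobin, fell and 0 rose, while Hbb had a value of -0.32 and Alas2 of 0.01 and did not pass. Of the erythroid list 12.5% was called, against 5.62% of all genes tested. Summed levels of the list ranged from 4129.9 to 8269 CPM in the single and from 2864 to 5992 CPM in the repeated group. Cardiac muscle genes, which pulmonary veins express as well, summed to 269 to 1972 CPM and to 438 to 1515 CPM, and 0 of 15 passed (median -0.41). With scores of erythroid, heart and liver transcripts added to the model, 848 genes were called, 633 of them among the 833, and Eln, Col3a1, Mki67, Cdk1, Pdgfra and Inmt kept their calls. In that fit 18 cell division genes fell and 1 rose, and 9 fibrillar and network collagens fell.

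The 28-day groups give the same genes at other ages and tables. Within the single schedule's own table, air lungs at 28 days were about 4 weeks older than at 1 day, and 482 genes differed (3.25% of those tested), 327 lower (2.2%) and 155 higher (1.05%) at 28 days. Repeated lungs at 1 day and single lungs at 28 days were both taken about 4 weeks after the first chamber day but came from different tables, and 113 genes differed (0.762%), 103 lower (0.694%) and 10 higher (0.0674%) in the repeated lungs. These comparisons share a group with the one described here, so only their own values are set side by side. Eln differed by -1.29 (SE 0.12, adjusted p = 3.93e-07) between 28 and 1 days in the single table and by -0.19 (SE 0.12, adjusted p = 0.495) between repeated 1-day and single 28-day lungs. In CPM, single lungs at 28 days averaged 483 and repeated lungs 422 at 1 day and 443 at 28 days. Col3a1 had -1.04 and 0.20, Mki67 -0.83 and 0.02, Mest -1.58 and 0.24, Cyp1a1 -2.19 and 0.23, Pdgfra 0.39 and 0.11, and Inmt 1.27 and -0.07 in these 2 comparisons. For each of these 7 genes the first passed and the second did not. All 7 were called at 1 day, and the 2 values of a gene add up to about its difference there. This arrangement was therefore favored by the choice of genes. The same holds for the lists that follow, which were picked by their calls at 1 day. As lists, cell division had 20 of 40 that fell and a median of -0.71 in the first, and 1 that rose and a median of 0.06 in the second. Elastic fiber genes had 9 of 19 that fell (median -0.47) and 0 (median -0.02), and fibrillar collagens 9 of 15 (median -0.40) and 0 (median 0.05).

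Other genes gave the opposite arrangement, and are named after their values were seen. Rps16 had 0.21 (adjusted p = 0.819) between 28 and 1 days of the single table and -1.91 (SE 0.34, adjusted p = 0.00759) between repeated 1-day and single 28-day lungs. Cldn18 had 0.04 and -0.69 (adjusted p = 0.928 and 0.00659), Serping1 0.08 and -0.79 (adjusted p = 0.866 and 0.0164) and Psmc3 0.00 and -0.43 (adjusted p = 0.991 and 0.0469). Hsp90b1 had 0.03 and -0.35 (adjusted p = 0.901 and 0.0481) and Htra1 -0.26 and -0.42 (adjusted p = 0.119 and 0.0271). In each of these 6 genes, repeated 1-day lungs were lower than both single groups. Between 28 and 1 days of the repeated table, 180 genes differed (1.21%), 124 higher (0.836%) and 56 lower (0.378%) at 28 days. Rps16, Cldn18, Psmc3 and Hsp90b1 were among the higher, at 1.65, 0.58, 0.59 and 0.40, and Serping1 and Htra1 had 0.59 and 0.35 (adjusted p = 0.0646 and 0.0577). The 6 genes were picked for low levels in repeated 1-day lungs, which enter this comparison too, so positive values were favored by the choice. Lbp fell short in both, at -0.34 and -0.71 (adjusted p = 0.425 and 0.104).

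The same contrast of schedules can be drawn in 12 other animals of the same 2 tables, those that breathed oil vapor, at 1 day. Any effect of oil vapor enters there too. It called 236 genes of 14947, or 1.58%, 167 lower (1.12%) and 69 higher (0.462%) in the repeated group. Of genes tested in both, 96 were lower in both, which is 17.9% of the 536 lower in air and 57.8% of the 166 lower in oil vapor. Higher in both were 12, or 4.05% of 296 and 17.6% of 68. None was called in opposite directions. Of the genes lower in air 78.7% had a negative value in oil vapor, against 45.5% of all genes, and of those higher in air 88.5% had a positive one, against 54.5% of all genes. Animal 43 of the repeated oil vapor group stood apart with 1.54 M counts, and without it 490 genes were called there, of which 147 were lower and 23 higher in both, and 1 was called in opposite directions.

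Gene by gene, Eln had -1.38 (SE 0.15, adjusted p = 2.77e-05) in oil vapor lungs, Col3a1 -0.83 (SE 0.12, adjusted p = 0.000879) and Mest -1.56 (SE 0.27, adjusted p = 0.00411). Inmt had 1.05 (SE 0.23, adjusted p = 0.0208), and Cyp1a1 -1.91 (adjusted p = 0.0205). Each of these passed in both sets of animals. Mki67 did not pass, at -0.56 (adjusted p = 0.249), and passed without animal 43, at -0.96 (adjusted p = 6.74e-05). Of the cell division list 5 of 40 fell in oil vapor with all animals (median -0.53), and 23 of 40 without animal 43 (median -0.89). Over all genes tested, calls in oil vapor also went from 236 (1.58%) to 490 without that animal. Called in air but not in oil vapor, and chosen after their values were seen, were Clec14a at 0.12 (adjusted p = 0.501), Col1a1 at -0.44 (adjusted p = 0.365), Cldn18 at 0.03 (adjusted p = 0.944) and Rps16 at 0.77 (adjusted p = 0.400). Whether these differ from air was not tested.

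**Figure D4:**
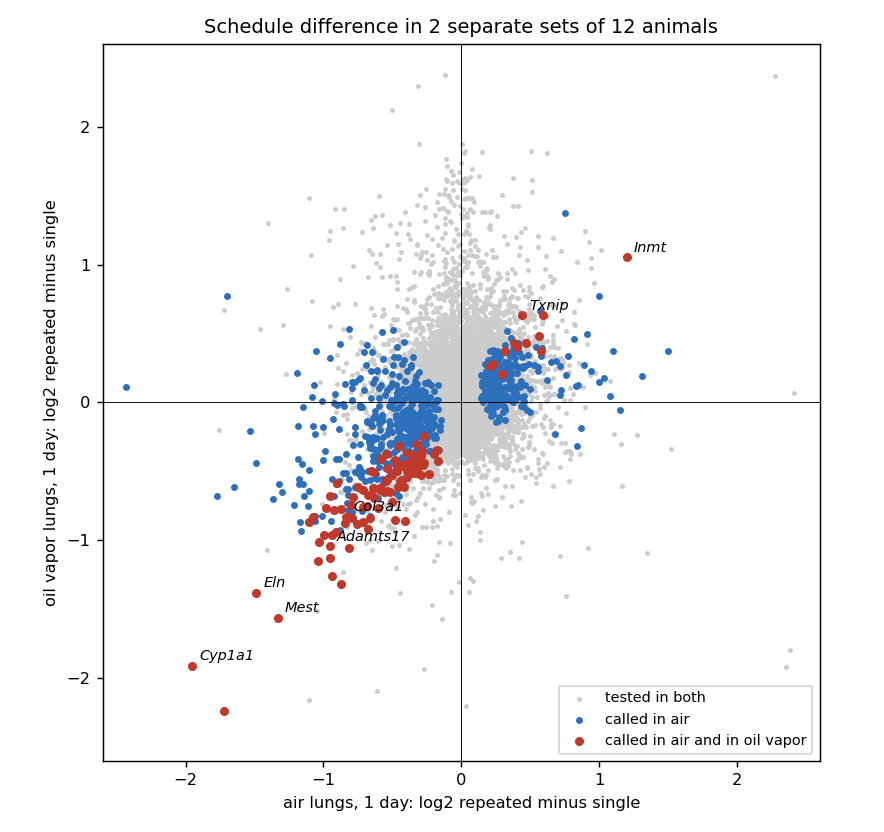
Log2 fold change of each gene tested in both, repeated minus single schedule at 1 day, in 12 air lungs (horizontal axis) and 12 oil vapor lungs (vertical axis). Genes called in air are blue and genes called in both, among them Eln, Col3a1, Mest, Cyp1a1 and Inmt, are red; all red points lie to the lower left or upper right of the origin.

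At 28 days fewer genes differed between the schedules in air: 15 of 14831 were called (0.101%), 13 lower (0.0877%) and 2 higher (0.0135%) in the repeated group, with 1606 at an unadjusted p below 0.05. DESeq2 called 131. Of the 13 lower, 4 were among the 537 lower at 1 day, which is 30.8% of the 13 and 0.745% of the 537. They were Adamts17, -0.52 (SE 0.10, adjusted p = 0.0260), Nid1, -0.33 (adjusted p = 0.0401), Tspan18, -0.41 (adjusted p = 0.0384), and Kank4, -0.34 (adjusted p = 0.0260). The last was -0.27 at 1 day and is named, outside the rule for named genes, after its value was seen. Eln stood at -0.12 at 28 days, Col3a1 at -0.21, Mki67 at -0.02 and Inmt at -0.01, none past the threshold. List medians that were far from 0 at 1 day lay nearer it at 28 days, at -0.02 for cell division, 0.08 for histones, -0.12 for elastic fiber genes, -0.07 for fibrillar collagens and 0.05 for sterol genes. These lists were picked by their calls at 1 day, which favors smaller medians in other animals.

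**Figure D5:**
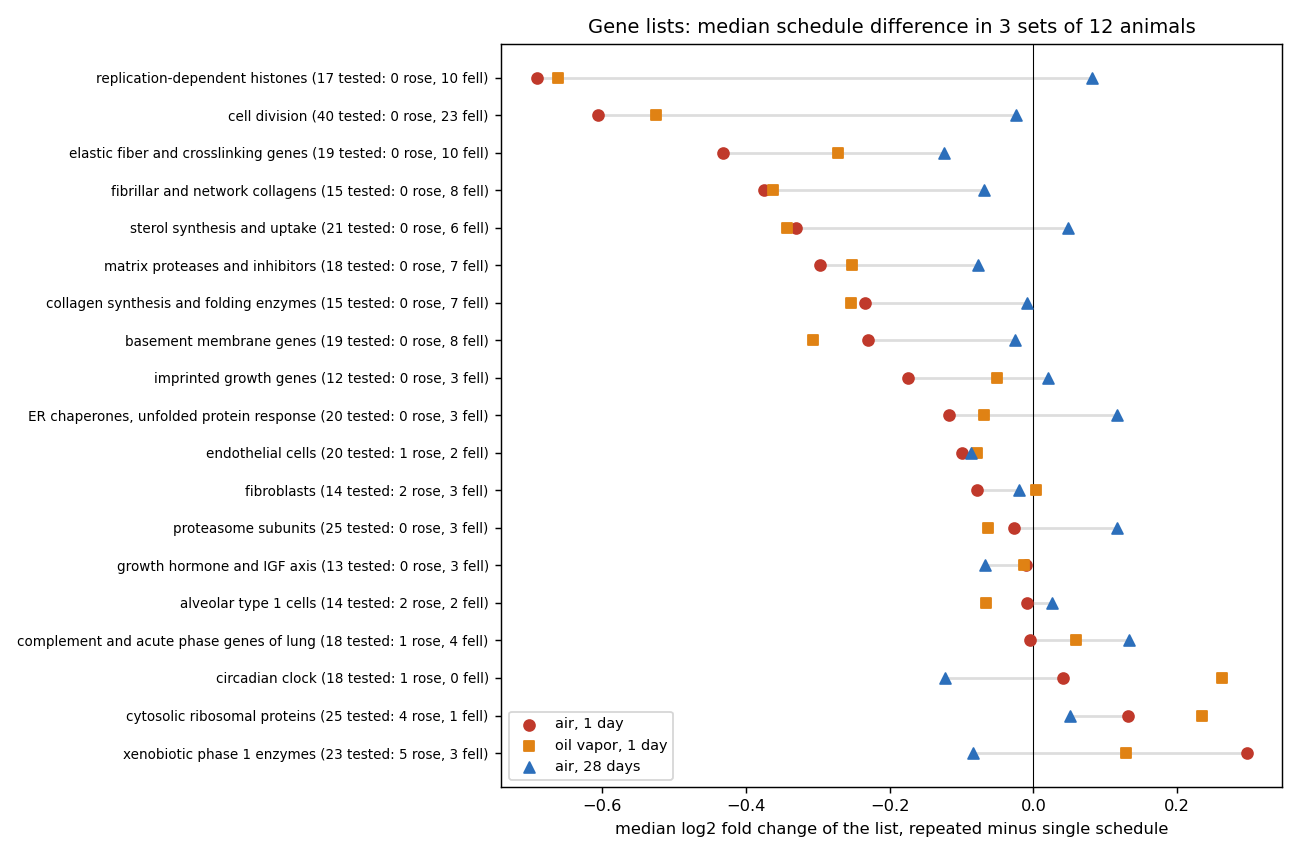
Median log2 fold change, repeated minus single schedule, of each gene list described (rows) in 12 air lungs at 1 day (red circles), 12 oil vapor lungs at 1 day (orange squares) and 12 air lungs at 28 days (blue triangles); row labels give the tested members that rose and fell in air at 1 day. Histones, cell division, elastic fiber, collagen and sterol lists lie left of 0 at 1 day in both sets and nearer 0 at 28 days. They were picked by their calls in air at 1 day.

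The change itself, the difference between schedules at 1 day minus that at 28 days, passed for 70 genes (0.472%), 42 negative (0.283%) and 28 positive (0.189%). DESeq2 called 220. Eln had the smallest p, -1.36 (SE 0.17, adjusted p = 0.000333), followed by Rsrp1 at 0.50 (SE 0.08, adjusted p = 0.00207), Hba1 at -1.17 (SE 0.18, adjusted p = 0.00207), Gprin3 at 0.49 (SE 0.08, adjusted p = 0.00293) and Fbln5 at -1.03 (SE 0.17, adjusted p = 0.00715). Rsrp1, a gene of an arginine- and serine-rich protein, stood at -0.44 (adjusted p = 0.000186) at 28 days and 0.06 (adjusted p = 0.578) at 1 day. For Col3a1, Nid1 and Adamts17 the change did not pass, at -0.63, -0.35 and -0.43 (adjusted p = 0.0596, 0.0838 and 0.151).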

How the data were processed

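Total RNA from a piece of lung of 48 male rats (8 groups of 6) was depleted of ribosomal RNA and sequenced with a stranded kit, per the labels' protocols, and the 12 air lungs at 1 day are described here. The authors deposited raw counts per gene symbol, 1 table for each schedule. The build was Rnor_6.0 and the tools included HTSeq 0.6.1, HISAT2 2.1.0, SAMtools 1.8, Trimmomatic 0.35 and bcl2fastq 2.19, per the submitters' processing notes. Which annotation was counted, and whether by strand, is not given in the sources used here, and reads of overlapping or antisense genes cannot be told apart. The tables were joined by symbol (30045 genes), and 19073 symbols matched a current and 2409 only an older symbol of the RefSeq table for GRCr8.

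The deposited counts of the 24 air libraries were fitted in 1 model of group means with edgeR 4.0.16 in R 4.3.3 (filterByExpr, TMM, quasi-likelihood test, Benjamini-Hochberg adjustment over all genes tested, threshold 0.05). The 24 oil vapor libraries were fitted separately in the same way. Standard errors are the log2 fold change divided by the square root of F and are approximate. The fitting was tested on simulated data. The labels name separate animals but not litters or dates, so p-values measure the spread between these animals only. Single libraries held 4.52 to 5.56 and repeated ones 4.59 to 6.07 M (mega) counts.

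Genes named in the text were the 15 of smallest p in each direction with a mean of at least 1 CPM and a symbol that is not a placeholder, the 4 of smallest p in each list described, the 5 of smallest p for the change between 1 and 28 days, and all tested clock and imprinted genes. Some genes that this rule takes are not reported here. Other members are named to complete a list or as its defining markers, chosen after their values were seen. Lists described had at least 10 tested and 3 called members, plus the clock; erythroid and cardiac lists are given as markers of other tissues, and some cell type and interferon lists only as having no call. The comparison, its members and the gene lists were chosen with earlier results of these data known. Alternatives were other scalings and filters, DESeq2 1.42.0, limma 3.58.1, a surrogate variable from sva 3.50.0, scores of other tissues, other sets of libraries and each library left out.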

Additional observations from a re-analysis of the deposited data

Results flagged for a closer look

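Single animals stood far from the rest of their group in 4 of 86 sets of 6 values (43 genes in both groups), by the gap to the nearest animal as a share of the range. Chance alone gives about 1 in 20. Gprin3 had 70.3 CPM in single animal 2, against a group median of 59.3 CPM, and Mest had 6.98 CPM in repeated animal 37, against a median of 3.94 CPM. Rora had 94.3 CPM in repeated animal 40 (median 102 CPM), and Rpl14 had 214 CPM in repeated animal 36 (median 234 CPM). Both Gprin3 and Mest kept their calls whichever library was left out.

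The difference between schedules changed between 1 and 28 days for 70 of 14831 genes, by edgeR's quasi-likelihood test of the difference of differences, and 28 of the 118 genes taken from the lists and rankings were among them. Most of the 118 were taken for a small p at 1 day, which enters the change, and 5 for the change itself, so this count was favored by the choice. The negative values, given as log2 difference at 1 day minus that at 28 days, held matrix genes. Eln had -1.36, Fbln5 -1.03, Loxl1 -0.72, Serpinh1 -0.71, Sparc -0.50, Mmp14 -0.45 and Fbn1 -0.43. The cell division gene Mki67 had -0.80 and the histone genes Hist1h3a and Hist1h1d had -1.001 and -0.98. Mest had -1.49, Hba1 -1.17, the sterol gene Hmgcs1 -0.81, Nrep -0.70, Igsf10 -0.69, Htra1 -0.61, Fat4 -0.36, and the chaperones Pdia6 and P4hb -0.33 and -0.30. Positive values were those of Hepacam2 (1.22), Inmt (1.21), Pdgfra (0.55), Cyp4b1 (0.54), Rsrp1 (0.50), Gprin3 (0.49), Crebrf (0.40), Clec14a (0.38) and Fam63b (0.35). Each schedule keeps its own table at both times.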

How the results depend on the processing

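The 833 calls at 1 day numbered 576 to 1182 under other scalings, filters, tools and sets of libraries, with no call in the opposite direction. Requiring at least 1.5-fold by the test itself left 4, of which 4 were lower and 0 higher. Leaving out 1 library at a time gave 483 to 875 calls, 156 to 312 higher and 327 to 580 lower. The fewest were without single animal 4 (483) and without repeated animal 39 (539, with 182 higher and 357 lower). Higher genes numbered 453 with limma-voom and 176 with all 48 libraries in 1 fit, and the higher share of calls went from 35.5% to 43.1% with library totals alone. The 15 calls at 28 days became 9 with no filter, 131 with DESeq2 and 7 with all 48 libraries. The 236 in oil vapor became 119 with no filter, 476 with DESeq2, 529 with all 48 libraries and 490 without animal 43. The 70 genes of the change became 220 and 27 with DESeq2 and all 48 libraries, and DESeq2 gave 305 in place of 113 and 361 in place of 180 for repeated 1-day against single 28-day lungs and for repeated lungs at 28 against 1 days. The cause was not tested. Of 87 named genes that were called, 67 kept the call in every setting but the 1.5-fold minimum and 0 reversed. Reversals of sign were confined, among the named genes and settings run, to 4 genes that were not called: Gnas (0.0023 with scores of other tissues), Per1 (-0.065 with limma-voom, -0.15 to 0.27 with libraries left out), Per3 (-0.021 with limma-voom, -0.12 to 0.13 with libraries left out) and Slc38a4 (-0.25 to 0.11 with libraries left out). The labels pair no animals between the groups, which share no animal numbers, so no paired analysis was run. A block by place in the order of numbers could be fitted. Only the parallel in the counts gives a reason for such pairs, and this fit was not run. At 4.52 to 6.07 M counts a library, genes near 0.663 CPM rest on 3 counts.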

Other observations

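A few low genes not covered by the lists, chosen after their values were seen, were also higher in repeated lungs at 1 day. Hepacam2 had 1.00, Rgs13, a regulator of G protein signaling, 1.04 (SE 0.23, adjusted p = 0.00878), Sh2d7 0.68 (SE 0.18, adjusted p = 0.0227) and Ptprt, a receptor phosphatase, 0.84 (SE 0.20, adjusted p = 0.0125). For each of the 4 the change between 1 and 28 days passed, at 1.22, 1.41, 1.11 and 1.25 (adjusted p = 0.0204, 0.0481, 0.0494 and 0.0494). The difference at 1 day enters the change, so this was favored by the choice of genes. In the oil vapor lungs at 1 day Hepacam2 had 0.15 and did not pass (adjusted p = 0.429). Values of the others there are not given here. Trpm5 and Pou2f3, known markers of tuft cells, had values of 0.30 and 0.43 and did not pass (adjusted p = 0.237 and 0.349).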
